A study of Mus musculus with 24 samples.

Results

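The genes described here are 10 mouse genes of oxidised fatty acid synthesis: the lipoxygenases Alox5, Alox8, Alox12, Alox12b, Alox15 and Aloxe3, the lipoxygenase partner Alox5ap, the cyclooxygenases Ptgs1 and Ptgs2, and the prostaglandin E synthase Ptges. They were taken by gene name from the array files, where they had 15 of the 56605 probes, and the probe with the highest mean signal stood for each gene. Of the 10 genes, 9 could be tested among 22065 genes or transcripts, because the Alox15 probe was not well above background on any of the 24 arrays. Whole vibrissa (whisker) follicles of B6C3F1 mice at postnatal day 9 were cultured for 24 h in RPMI medium with 10% fetal bovine serum. The follicles received panthenyl ethyl ether (PEE, 0.3%), pyridoxine hydrochloride (PH, 0.015%) and tocopherol acetate (TA, 0.024%) together (PEE-PH-TA), in the pairs PEE-PH, PEE-TA and PH-TA, as PEE, PH or TA alone, or, in the control, none of them. Each of the 8 groups had 3 arrays, and each array carried RNA of 10 pooled follicles from 1 of 3 independent experiments. The medium and the serum were common to all groups, the control included, and the labels name no solvent for the compounds. A vitamin ester or ether of this kind is a stabilised form of tocopherol (vitamin E) or of the provitamin panthenol, and pyridoxine is a form of vitamin B6.

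Phospholipases free arachidonic acid from membranes, cyclooxygenases turn it into prostaglandin H for the prostanoid synthases, and lipoxygenases add oxygen to it to give leukotrienes and hydroxy acids. In skin, Aloxe3 and Alox12b act one after the other on the linoleate of acylceramides, a step needed for the water barrier. Prostaglandins E and F are known as signals that lengthen hair growth, and prostaglandin D as one that limits it.

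Values are log2 signal minus the log2 75th percentile of signal on the same array, so that 0 is the 75th percentile and 1 unit is a doubling, and they rank samples within a gene but not genes against each other. Per array, 58.3% to 62.5% of spots passed the scanner's background test, and arrays of a group correlated across genes at r = 0.993 to 0.997. The 75th percentile itself ran from 199 to 217 signal units with PEE-PH, 203 to 248 in PH-TA follicles and 142 to 147 in PEE follicles, against 155 to 190 in control. Differences are log2 with the limma standard error after ±, adjusted p-values are Benjamini-Hochberg over all genes, and the threshold was 0.05. An average effect is the difference with and without a compound, averaged over the 4 backgrounds that the other compounds make. The number of arrays limits the precision, and in whole follicles fewer cells of a type cannot be told apart from less RNA per cell.

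Ptgs1 fell, and Alox8 and Alox12b rose, in most of the combinations, while Aloxe3 rose and Alox5ap was higher where PEE was present. With PEE-PH-TA, 1 of the 9 tested genes rose (Alox8) and 1 fell (Ptgs1), against 7.78% of all genes higher and 8.72% lower (16.5% in all). PEE-PH raised 3 (Alox8, Alox12b and Aloxe3) and lowered 1 (Ptgs1), against 14.9% higher and 20.9% lower (35.9% in all). PEE-TA raised 2 (Alox8 and Alox12b) and lowered Ptgs1, against 10.2% and 15.3% (25.5% in all), and PH-TA did so with the same 3 genes, against 12.1% and 17.5% (29.6% in all). Of the single compounds, PEE raised 1 gene (Aloxe3) against 5.2% higher and 5.69% lower (10.9% in all), and PH raised 1 (Alox12b) and lowered 1 (Ptgs1) against 1.6% and 3.65% (5.25% in all). TA called 0 of 9 against 0.399% higher and 1.43% lower (1.83% in all), with 4 of 9 under an unadjusted p of 0.05 by limma. Averaged over backgrounds, PEE raised 2 and lowered 2 of the 9 against 12.8% higher and 14.2% lower (27% in all). PH raised 2 and lowered 2 against 13.9% and 17.4% (31.3% in all), and TA raised 1 and lowered 0 against 2.78% and 5.2% (7.99% in all). Over the 9 genes the median difference with PEE-PH-TA was 0.08, beside 0.00 over all genes, and that with PH-TA was -0.17, beside -0.06. These shares lie near the background in the combinations, so the genes are described one by one. The 7 comparisons with control share the 3 control arrays.

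**Figure D1:**
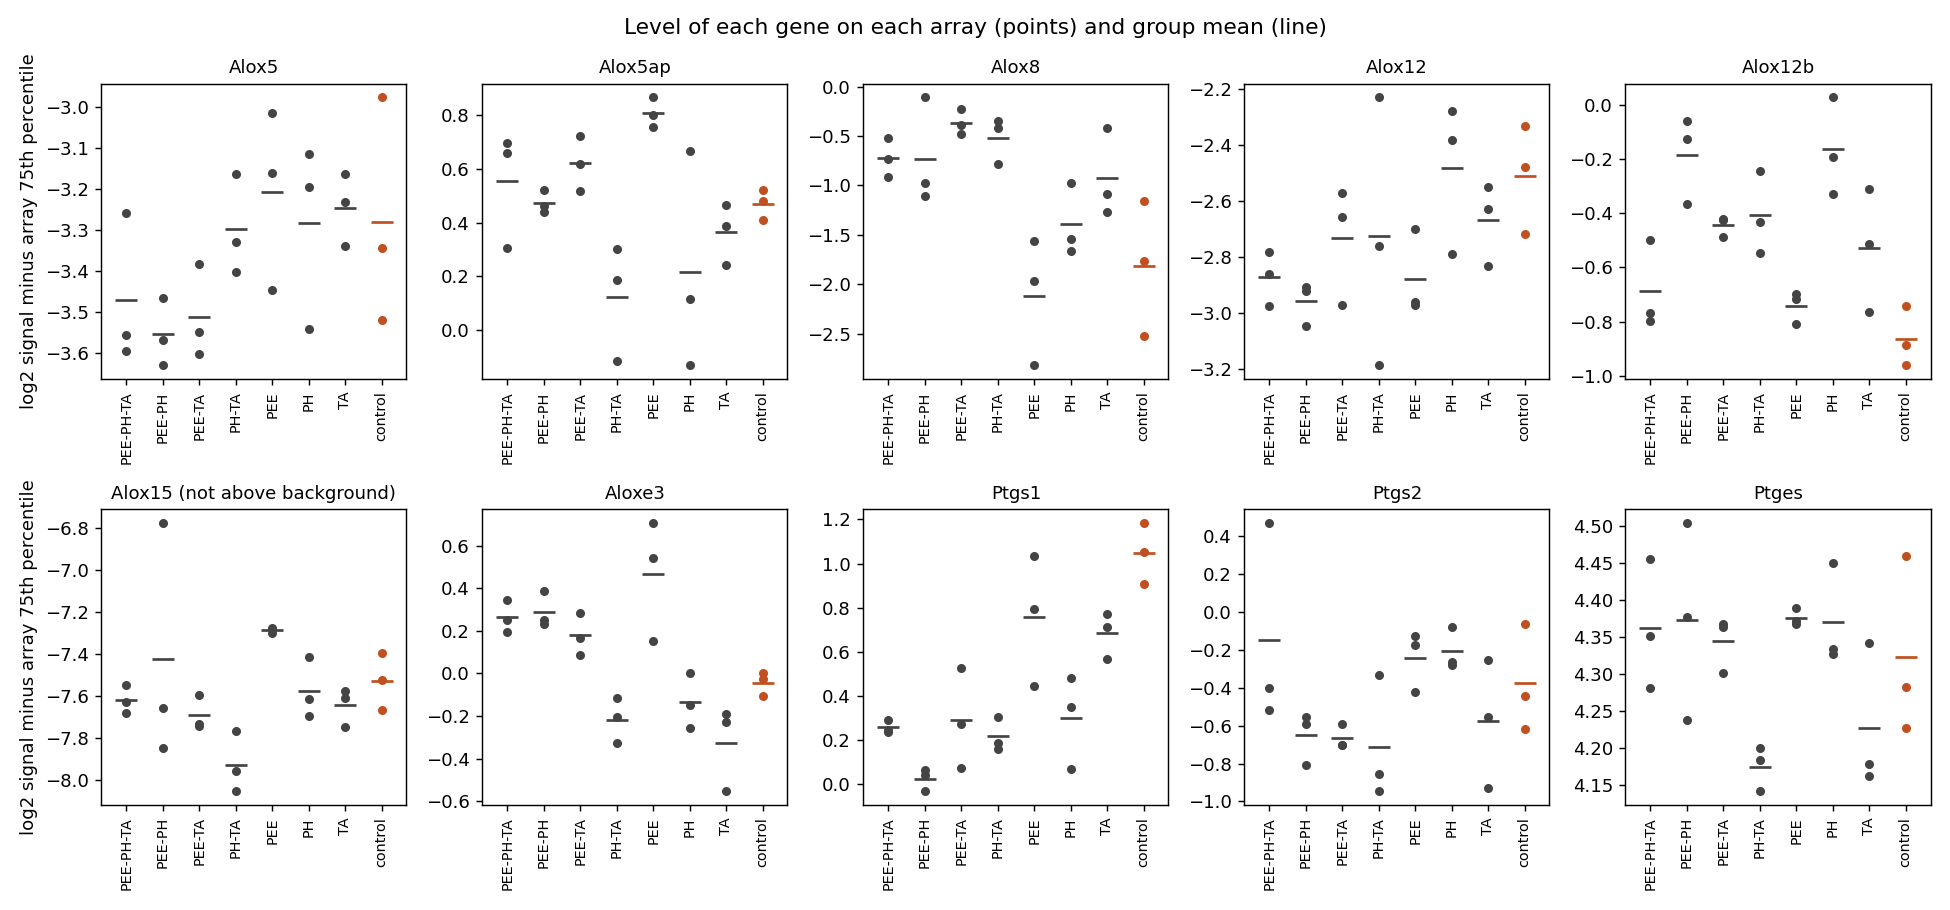
Level of each gene on each of the 24 arrays (points, log2 signal minus the array's 75th percentile) by group, with group means (lines), treated groups in grey and control in orange. Ptgs1 had its highest mean in control (arrays 0.91 to 1.18), Alox8 lay higher in the 4 combinations than in control, and the Alox15 values are at background and carry no level.

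Ptgs1, the constitutive cyclooxygenase, had a lower mean than control in all 7 treated groups, and the fall passed the test in 5. Its values were 0.29, 0.24 and 0.25 in PEE-PH-TA follicles, against 1.05, 1.18 and 0.91 in control. They were 0.04, 0.07 and -0.03 in PEE-PH follicles, 0.53, 0.28 and 0.07 in PEE-TA follicles, and 0.16, 0.30 and 0.19 in PH-TA follicles. No array of these 4 combinations reached the lowest control array. Single compounds gave 0.79, 0.45 and 1.03 in PEE follicles, 0.35, 0.07 and 0.48 in PH follicles, and 0.71, 0.77 and 0.57 in TA follicles. The PH and TA arrays lay below every control array, whereas the PEE arrays overlapped them.

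Against control, Ptgs1 changed by -0.79 ± 0.13 in PEE-PH-TA follicles (adjusted p = 0.000538), which is 57.8% of the control level. The change was -1.02 ± 0.13 in PEE-PH follicles (adjusted p = 1.99e-05), -0.76 ± 0.13 in PEE-TA follicles (adjusted p = 0.00062) and -0.83 ± 0.13 in PH-TA follicles (adjusted p = 0.000374). PH alone gave -0.75 ± 0.13 (adjusted p = 0.0039), a fall that was seen on all 3 slides (-0.70, -1.12 and -0.42). PEE gave -0.29 ± 0.13 (adjusted p = 0.178) and TA -0.36 ± 0.13 (adjusted p = 0.165). Averaged over backgrounds, PH lowered Ptgs1 by 0.50 (-0.50 ± 0.07, adjusted p = 5.86e-05), PEE changed it by -0.23 ± 0.07 (adjusted p = 0.0146) and TA by -0.17 ± 0.07 (adjusted p = 0.122). The average effect of TA passed without PEE replicate 2 (-0.21, adjusted p = 0.0395). The PH change missed the threshold when only PH and control arrays were fitted (adjusted p = 0.0593), and without replicate 1 (-0.77, adjusted p = 0.0675) or replicate 2 (-0.56, adjusted p = 0.164) of every group. The average effect of PEE lost its call with the array signal as a covariate (-0.18, adjusted p = 0.0881) and without replicate 1 (-0.27, adjusted p = 0.0917) or replicate 2 (-0.18, adjusted p = 0.129) of every group.

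Markers of mast cells, which make prostaglandin D, had their highest mean summed signal in control. The sum over 8 markers, in units of the array's 75th percentile, was 15.3 to 23.4 in PEE-PH-TA follicles, 17.2 to 21.7 in PEE-PH follicles, 17.9 to 23.8 in PEE-TA follicles, 13.9 to 20.1 in PH-TA follicles, 20.6 to 23.9 in PEE follicles, 14.0 to 27.4 in PH follicles and 18.7 to 24.9 in TA follicles, against 23.5 to 38.8 in control. With PEE-PH-TA 4 of the 7 tested markers fell, among them the chymase genes Cma1 and Mcpt4 and the tryptase gene Tpsb2, and none of the 8 was below background throughout. Kit, the receptor of stem cell factor in the same list, went the other way, with 0.21 ± 0.12 in PEE-PH-TA follicles (adjusted p = 0.258) and rises of 0.62 ± 0.12 in PEE-PH (adjusted p = 0.000741), 0.57 ± 0.12 in PEE-TA (adjusted p = 0.00237) and 0.65 ± 0.12 in PH-TA follicles (adjusted p = 0.000969). Whether the fall of Ptgs1 lies in these cells was not tested.

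The promoters of the 2 cyclooxygenases are shown side by side. Whether the changes of the 2 genes differed was not tested. Each is 250 bases before to 50 after the start of the gene, from RefSeq on GRCm38.p6, with matches of 6 motifs in capitals: the TATA box TATAAA, the GC box GGGCGG, the AP-1 element TGANTCA, the antioxidant response element core TGACNNNGC, the cyclic AMP element TGACG and the CCAAT box CCAAT, on both strands. Ptgs1 lies on the plus strand at chr2:36230176-36230475.
Ptgs1: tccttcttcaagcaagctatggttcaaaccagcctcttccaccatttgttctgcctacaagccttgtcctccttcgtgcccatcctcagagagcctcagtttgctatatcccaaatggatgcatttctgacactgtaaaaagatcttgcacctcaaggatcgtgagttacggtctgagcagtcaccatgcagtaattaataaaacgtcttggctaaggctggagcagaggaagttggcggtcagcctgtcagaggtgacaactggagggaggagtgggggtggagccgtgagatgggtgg
Ptgs2: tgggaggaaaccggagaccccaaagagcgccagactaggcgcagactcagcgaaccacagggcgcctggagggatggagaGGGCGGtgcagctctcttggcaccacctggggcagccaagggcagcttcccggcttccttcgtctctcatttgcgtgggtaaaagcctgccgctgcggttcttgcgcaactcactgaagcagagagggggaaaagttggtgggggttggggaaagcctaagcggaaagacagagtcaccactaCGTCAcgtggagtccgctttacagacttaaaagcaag
The Ptgs1 window held no match. Ptgs2, on the plus strand at chr1:150099781-150100080, held 1 GC box and, on the minus strand, 1 cyclic AMP element, and no other match. Among all 32851 RefSeq promoters of this length, 35.7% held a GC box, 20.8% the cyclic AMP element, 13.6% a TATA box, 7.81% an AP-1 element, 12.4% the antioxidant response core and 37.4% a CCAAT box. A match describes the letters only. On mm9, the array build, the Ptgs1 probe lies on chromosome 2 at 36107644-36107703 and the Ptgs2 probe on chromosome 1 at 151954744-151954803.

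Ptgs2, the inducible cyclooxygenase, did not pass against control in any of the 7 comparisons, and its changes ran from -0.34 ± 0.22 in PH-TA follicles to 0.23 ± 0.22 in PEE-PH-TA follicles. Its values were -0.52, -0.40 and 0.47 in PEE-PH-TA follicles, against -0.62, -0.44 and -0.06 in control. They were -0.81, -0.59 and -0.55 in PEE-PH follicles, -0.59, -0.70 and -0.70 in PEE-TA follicles and -0.86, -0.95 and -0.33 in PH-TA follicles. Single compounds gave -0.18, -0.42 and -0.12 in PEE follicles, -0.08, -0.28 and -0.26 in PH follicles and -0.25, -0.93 and -0.55 in TA follicles. Replicate 3 of PEE-PH-TA stood well above the other arrays of its group, and every treated group overlapped the control. The 95% interval of the PEE-PH-TA change was -0.24 to 0.69. The average effects on Ptgs2 were 0.04 ± 0.11 for PEE, 0.03 ± 0.11 for PH and -0.16 ± 0.11 for TA.

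Ptges, the inducible prostaglandin E synthase that usually works with Ptgs2, changed little on the probe that stood for it. This probe, at transcript base 3583, gave 4.28, 4.35 and 4.46 in PEE-PH-TA follicles, against 4.23, 4.28 and 4.46 in control. PH-TA arrays gave 4.20, 4.14 and 4.18, just below every control array. The other groups, at 4.24, 4.38 and 4.50 in PEE-PH follicles, 4.37, 4.30 and 4.36 in PEE-TA follicles, 4.37, 4.39 and 4.37 in PEE follicles, 4.45, 4.33 and 4.33 in PH follicles and 4.34, 4.16 and 4.18 in TA follicles, overlapped the control. Against control the change was 0.04 ± 0.07 in PEE-PH-TA follicles and -0.15 ± 0.07 in PH-TA follicles (adjusted p = 0.141), and the average effect of PEE was 0.09 ± 0.04 (adjusted p = 0.0814). That average passed when control replicate 3 (0.11, adjusted p = 0.0336), TA replicate 1 (0.10, adjusted p = 0.0443) or PEE-PH replicate 1 (0.11, adjusted p = 0.0348) was left out.

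The 2 other Ptges probes lie closer to the start of the transcript and gave larger changes. The opening 30 bases of the 3 probes, all on chromosome 2, are given in the direction of the transcript, from base 364, 740 and 3583.
Ptges base 364: aaccctctgatcgcctggatacatttcctc
Ptges base 740: gccacttacagatgagctgtcaagatttga
Ptges base 3583: atgataaaggactaaacctctgaacctgta
At base 364 the values were 0.42, 0.10 and 0.52 in PH-TA follicles, against 0.96, 0.66 and 1.01 in control, with no overlap. At base 740 they were 1.67, 1.49 and 1.86 in PH-TA follicles, against 2.19, 1.93 and 2.29 in control, again with no overlap. In a fit over all 33340 tested probes, chosen after the data were seen, PH-TA changed them by -0.53 ± 0.17 (adjusted p = 0.0295) and -0.46 ± 0.18 (adjusted p = 0.0581), and the average effect of PEE was 0.27 ± 0.09 (adjusted p = 0.0263) and 0.25 ± 0.09 (adjusted p = 0.0454). With the mean of all tested probes of the gene, Ptges also passed with PH-TA (-0.38, adjusted p = 0.0394) and in the average effect of PEE (0.20, adjusted p = 0.0299). In these comparisons the 3 probes had the same sign and differed in size. Why the probes differ was not tested.

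**Figure D2:**
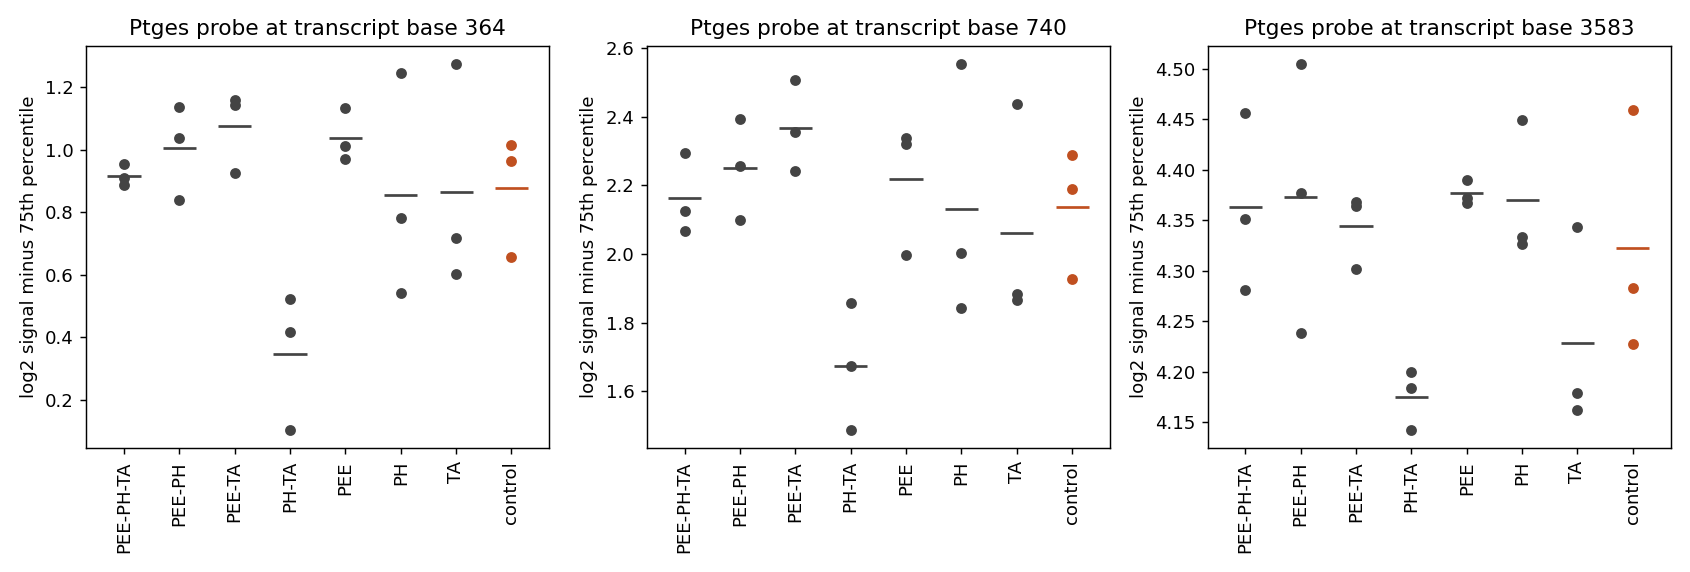
Level of Ptges on its 3 tested probes, by transcript position (panels), for each array (points) and group mean (lines), in log2 signal minus the array's 75th percentile. On the probes at base 364 and 740 all 3 PH-TA arrays lie below all control arrays, and on the probe at base 3583 the gap is narrow.

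Upstream of the cyclooxygenases, 12 phospholipase A genes were tested. Counts in this and the other gene lists stand beside the shares of all genes called, 16.5% with PEE-PH-TA and 27%, 31.3% and 7.99% in the average effects of PEE, PH and TA, and nothing particular to a list is read from them. With PEE-PH-TA 1 rose and 1 fell. Pla2g2e, a secreted phospholipase of the hair follicle, rose by 0.90 ± 0.17 (adjusted p = 0.0015), and Pla2g2f, a secreted one of the upper epidermis, changed by -0.45 ± 0.12 (adjusted p = 0.0134). Averaged over backgrounds, PH raised 2 and lowered 3 of the 12, with Pla2g4f, a cytosolic one, at -0.43 ± 0.06 (adjusted p = 0.000156), and PEE raised 3 and lowered 0, with Pla2g5 at 0.34 ± 0.10 (adjusted p = 0.0135). The list's median was 0.06 in PEE-PH-TA follicles, beside 0.00 over all genes.

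Downstream, 2 of the 9 tested prostanoid synthases and reductases rose with PEE-PH-TA and 0 fell. On average PEE raised Cbr3, a carbonyl reductase that can act on prostaglandins, by 0.96 ± 0.05 (adjusted p = 2.33e-11) and lowered the prostacyclin synthase Ptgis (-0.19 ± 0.06, adjusted p = 0.0342). On average PH lowered the haematopoietic prostaglandin D synthase Hpgds (-0.36 ± 0.09, adjusted p = 0.00487), an enzyme of mast cells and other immune cells. TA raised Ptgds, the other prostaglandin D synthase, by 0.38 ± 0.08 (adjusted p = 0.0087).

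Among 8 tested prostanoid receptors, 2 rose and 0 fell with PEE-PH-TA, with a median of 0.31, beside 0.00 over all genes. Ptgfr, the receptor of prostaglandin F, rose by 0.75 ± 0.16 (adjusted p = 0.00367). Across backgrounds PH raised 3 of 8, with the prostaglandin E receptor Ptger1 at 0.63 ± 0.14 (adjusted p = 0.00227). Ptger1 was dim, with group means from -5.46 in PEE to -3.92 in PH-TA follicles, which limits what it shows. Of 5 genes of prostaglandin breakdown and transport, 2 rose and 1 fell with PEE-PH-TA. Across backgrounds PEE raised the efflux pump Abcc4 by 0.75 ± 0.06 (adjusted p = 6.38e-08) and the reductase Ptgr1 by 0.74 ± 0.06 (adjusted p = 2.13e-08). The uptake transporter Slco2a1 changed by -0.45 ± 0.12 in PEE-PH-TA follicles (adjusted p = 0.0155), and the average effect of PH on Abcc4 was -0.21 ± 0.06 (adjusted p = 0.0168).

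Alox5ap, the membrane protein that hands arachidonate to Alox5 in leukocytes, was higher with PEE and lower with PH. Its values were 0.76, 0.87 and 0.80 in PEE follicles, against 0.48, 0.41 and 0.52 in control. PEE-PH-TA arrays gave 0.70, 0.66 and 0.31, and PH-TA arrays -0.11, 0.30 and 0.19. All PEE arrays lay above, and all PH-TA arrays below, every control array, while the PEE-PH-TA arrays overlapped them. The remaining groups gave 0.44, 0.46 and 0.52 in PEE-PH follicles, 0.72, 0.52 and 0.62 in PEE-TA follicles, 0.66, 0.12 and -0.13 in PH follicles and 0.39, 0.24 and 0.47 in TA follicles. The change against control was 0.34 ± 0.15 in PEE follicles (adjusted p = 0.167) and -0.35 ± 0.15 in PH-TA follicles (adjusted p = 0.0909), so neither passed in the main fit. The PH-TA change passed on the second Alox5ap probe (-0.41 ± 0.14, adjusted p = 0.0331 over all tested probes). It also passed with the mean of all tested probes of the gene (-0.38, adjusted p = 0.039). The PEE change passed with only the arrays compared (adjusted p = 0.0489). PH alone gave -0.25 ± 0.15 (adjusted p = 0.362), which passed without PH replicate 1 (-0.48, adjusted p = 0.0327).

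Averaged over backgrounds, PEE raised Alox5ap by 0.32 ± 0.08 (adjusted p = 0.00356), on all 3 slides (0.30, 0.36 and 0.30), and PH lowered it by 0.22 (-0.22 ± 0.08, adjusted p = 0.0306). The PEE effect lost its call without replicate 2 of every group (0.30, adjusted p = 0.106). The PH effect lost its call when any of 7 of the 24 arrays was left out: control replicate 3, PH replicate 2 or 3, TA replicate 3, PH-TA replicate 1, PEE-TA replicate 1 or PEE-PH-TA replicate 3, with changes of -0.18 to -0.22 and adjusted p of 0.0504 to 0.061. It was -0.05 with the array signal as a covariate (adjusted p = 0.898) and -0.14 without replicate 3 of every group (adjusted p = 0.248). On the second Alox5ap probe the average effect of PEE was 0.30 ± 0.07 (adjusted p = 0.00379) and that of PH was -0.24 ± 0.07 (adjusted p = 0.0152). Macrophage markers summed to 56.9 to 66.9 in PEE follicles and 40.2 to 47.0 in PH-TA follicles, against 48.1 to 61.1 in control. Within that list Cd68 and Lyz2 rose and 6 others fell in the average effect of PEE, among them Aif1 (-0.52) and C1qa (-0.64). All 9 markers were detected, and their part in the result was not tested.

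Alox5, the leukotriene-forming lipoxygenase, was dim and passed in no comparison in the main fit. Its values were -3.59, -3.26 and -3.56 in PEE-PH-TA follicles, against -3.52, -3.34 and -2.98 in control, and the groups overlapped. They were -3.57, -3.63 and -3.46 in PEE-PH follicles, -3.55, -3.38 and -3.60 in PEE-TA follicles and -3.40, -3.16 and -3.33 in PH-TA follicles. Single compounds gave -3.45, -3.16 and -3.01 in PEE follicles, -3.11, -3.54 and -3.20 in PH follicles and -3.34, -3.23 and -3.16 in TA follicles, all within 1 log2 unit of each other. Changes against control ran from -0.27 ± 0.14 in PEE-PH follicles to 0.07 ± 0.14 in PEE follicles. The average effect of PEE was -0.16 ± 0.07 (adjusted p = 0.107). It passed without PH replicate 2 (-0.19, adjusted p = 0.0468) and with the array signal as a covariate (-0.22, adjusted p = 0.0471). With normexp background correction, Alox5 was called against control with PEE-PH (-0.19, adjusted p = 0.0181) and PH-TA (-0.20, adjusted p = 0.0122). It was then also called in the average effects of PH (-0.11, adjusted p = 0.00527) and TA (-0.09, adjusted p = 0.0402), for PEE-PH against the sum of single compounds (-0.28, adjusted p = 0.0389), and in the interactions of PH and TA with PEE present (0.36, adjusted p = 0.00224) and of PEE and TA with PH present (0.28, adjusted p = 0.0176). The offset of 50 units in that correction exceeds the median processed signal of Alox5, which ran from 15.9 in PEE to 23.4 in PH-TA follicles. On the processed signal the group means were -3.30 in PH-TA follicles and -3.28 in control. The part of the offset in these calls was not tested.

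Of 11 tested genes of leukotriene synthesis and reception, 0 rose and 3 fell with PEE-PH-TA, with a median of -0.09. Dpep2, a dipeptidase that converts leukotriene D, changed by -0.79 ± 0.21 (adjusted p = 0.0143), and the leukotriene B receptor Ltb4r2 by -0.46 ± 0.10 (adjusted p = 0.00415). The average effect of PEE raised 1 and lowered 5 of the 11, and Mgst2, a glutathione transferase that can make leukotriene C, rose by 0.29 ± 0.08 (adjusted p = 0.0146). That of TA raised 2, among them Ggt1 (0.32 ± 0.07, adjusted p = 0.0113).

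On mm9 the probes of 5 of the 10 genes lie on chromosome 11. The Aloxe3, Alox12b and Alox8 probes start at 68962557, 68983186 and 68997931, spaced by 20.6 and 14.7 kb, and the Alox12 and Alox15 probes lie 1058 and 103 kb further on in turn. The 3 neighbours did not change alike. Across the 24 arrays r was -0.06 between Alox12b and Aloxe3, 0.42 between Alox12b and Alox8, and -0.04 between Alox8 and Aloxe3, as a description over arrays that share groups, slides and scaling.

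Aloxe3, which rearranges the hydroperoxide that Alox12b makes, followed PEE. Its values were 0.35, 0.25 and 0.19 in PEE-PH-TA follicles, 0.23, 0.39 and 0.25 in PEE-PH follicles, 0.28, 0.17 and 0.08 in PEE-TA follicles and 0.54, 0.15 and 0.71 in PEE follicles, against -0.02, 0.00 and -0.11 in control. Every array with PEE lay above every array without it. Arrays without PEE gave -0.12, -0.33 and -0.21 in PH-TA follicles, -0.26, -0.15 and 0.00 in PH follicles and -0.23, -0.19 and -0.55 in TA follicles. Averaged over backgrounds, PEE raised Aloxe3 by 0.48 ± 0.06 (95% interval 0.36 to 0.60, adjusted p = 7.29e-06), which is 1.39-fold, and it did so on each slide (0.51, 0.41 and 0.53) and under every alternative tried. PH changed it by -0.02 ± 0.06 and TA by -0.17 ± 0.06 (adjusted p = 0.0863), where the TA effect passed without PEE replicate 2 (-0.21, adjusted p = 0.0191).

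Against control alone, Aloxe3 rose by 0.51 ± 0.12 in PEE follicles (adjusted p = 0.00962) and by 0.33 ± 0.12 in PEE-PH follicles (adjusted p = 0.0358). It was 0.31 ± 0.12 in PEE-PH-TA follicles (adjusted p = 0.087) and 0.22 ± 0.12 in PEE-TA follicles (adjusted p = 0.182), with no overlap of arrays in either case. The PEE call was lost without PEE replicate 3 (0.39, adjusted p = 0.0603), and the PEE-PH call without any one of its own or the control arrays (0.28 to 0.36, adjusted p = 0.0543 to 0.125). With the array signal as a covariate the PEE-PH change was 0.17 (adjusted p = 0.511), and with only the arrays compared the PEE call was lost (adjusted p = 0.102).

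Alox12b, the R-type lipoxygenase that starts this sequence, was higher in 4 of the treated groups. Its values were -0.50, -0.77 and -0.80 in PEE-PH-TA follicles, against -0.89, -0.96 and -0.74 in control, which overlap. They were -0.13, -0.06 and -0.36 in PEE-PH follicles, -0.42, -0.42 and -0.49 in PEE-TA follicles, -0.24, -0.55 and -0.43 in PH-TA follicles, and -0.33, 0.03 and -0.19 in PH follicles. All of these pairs and PH alone lay above every control array. PEE and TA alone, at -0.72, -0.81 and -0.70 and at -0.31, -0.51 and -0.77, overlapped the control.

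Against control, Alox12b rose by 0.70 ± 0.12 in PH follicles (adjusted p = 0.00315), by 0.68 ± 0.12 in PEE-PH follicles (adjusted p = 0.000318), by 0.42 ± 0.12 in PEE-TA follicles (adjusted p = 0.0163) and by 0.46 ± 0.12 in PH-TA follicles (adjusted p = 0.00885). With PEE-PH-TA the change was 0.18 ± 0.12 (adjusted p = 0.365). The PEE-TA call was lost without control replicate 2 (0.37, adjusted p = 0.0659) or PEE-TA replicate 2 (0.41, adjusted p = 0.056), and the PH-TA call without PH-TA replicate 1 (0.37, adjusted p = 0.0571). The PH call was lost without replicate 2 of every group (0.55, adjusted p = 0.209) and with only the arrays compared (adjusted p = 0.0516). Averaged over backgrounds, PH raised Alox12b by 0.28 ± 0.06 (adjusted p = 0.00199), and PEE and TA changed it by -0.02 ± 0.06 and -0.03 ± 0.06. With the signal of each array as a covariate, PEE-TA gave 0.38 (adjusted p = 0.0658), PH-TA 0.35 (adjusted p = 0.388) and the average effect of PH 0.23 (adjusted p = 0.306), while PH alone and PEE-PH kept their calls against control.

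Alox8, the mouse lipoxygenase of phorbol-treated skin and of the hair follicle, was higher in all 4 combinations. Its values were -0.52, -0.73 and -0.92 in PEE-PH-TA follicles, -1.11, -0.11 and -0.98 in PEE-PH follicles, -0.39, -0.23 and -0.48 in PEE-TA follicles and -0.41, -0.35 and -0.78 in PH-TA follicles, against -1.76, -1.16 and -2.53 in control. Each of these arrays lay above every control array. Single compounds gave -1.56, -2.82 and -1.96 in PEE follicles, -1.54, -0.97 and -1.66 in PH follicles and -1.09, -0.42 and -1.27 in TA follicles, and overlapped the control. The control and PEE arrays were the most spread (SD 0.68 and 0.64, n = 3 each).

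Against control, Alox8 rose by 1.10 ± 0.35 in PEE-PH-TA follicles (adjusted p = 0.037), by 1.09 ± 0.35 in PEE-PH follicles (adjusted p = 0.0206), by 1.45 ± 0.35 in PEE-TA follicles (adjusted p = 0.00569), which is 2.73-fold, and by 1.30 ± 0.35 in PH-TA follicles (adjusted p = 0.00954). Averaged over backgrounds, TA raised it by 0.88 ± 0.17 (adjusted p = 0.00738; 0.101 without replicate 1 or without replicate 3 of every group) on all 3 slides (0.89, 0.83 and 0.92), PH by 0.47 ± 0.17 (adjusted p = 0.0482), and PEE changed it by 0.18 ± 0.17 (adjusted p = 0.505). Several of these calls rest on single arrays. Without control replicate 3 the PEE-PH-TA rise was 0.74 (adjusted p = 0.205), the PEE-PH rise 0.73 (adjusted p = 0.132) and the PH-TA rise 0.95 (adjusted p = 0.0661). The PEE-PH call was also lost without PEE-PH replicate 2 (0.77, adjusted p = 0.12), and that of PEE-PH-TA without control replicate 1 (1.12, adjusted p = 0.0733) or PEE-PH-TA replicate 1, 2 or 3 (0.99, 1.10 and 1.19, adjusted p = 0.118, 0.0806 and 0.0519). The average effect of PH lost its call without any of 17 of the 24 arrays (0.38 to 0.49, adjusted p up to 0.0911). It was also lost with the authors' deposited values (0.46, adjusted p = 0.0525) and with a trended and robust variance prior in limma (0.47, adjusted p = 0.0501).

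The 75th percentile signal differed between groups as given above, and the control arrays overlapped those of 4 treated groups in it. With that signal as a covariate, the average effect of TA on Alox8 was 0.57 (adjusted p = 0.321), and that of PH 0.01 (adjusted p = 0.991). The change against control was then 0.91 in PEE-PH-TA (adjusted p = 0.081), 0.47 in PEE-PH (adjusted p = 0.526) and 0.48 in PH-TA follicles (adjusted p = 0.689), and of the 4 combinations PEE-TA alone kept its call. The PEE-TA call was lost without replicate 1 (1.49, adjusted p = 0.0601) or replicate 3 (1.15, adjusted p = 0.113) of every group. The other combinations lost theirs in both settings too. Markers of hair shaft and inner root sheath were also higher in the 4 combinations. Their summed signal over 9 markers was 803 to 837 in PEE-PH-TA follicles, 864 to 873 in PEE-PH follicles, 895 to 898 in PEE-TA follicles, 847 to 963 in PH-TA follicles and 438 to 599 in PEE follicles, against 475 to 664 in control. The sum was 677 to 909 in PH and 703 to 957 in TA follicles, above every control array. Alox8 also had higher means with PH (-1.39) and TA (-0.92) than in control (-1.82), with arrays that overlapped the widely spread control. In the average effect of TA 7 of the 9 rose and 0 fell, and in that of PH 6 rose and 0 fell, among them the sheath keratin Krt25 and the transcription factors Foxn1 and Hoxc13. The part of these cells in the rise of Alox8 was not tested.

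**Figure D3:**
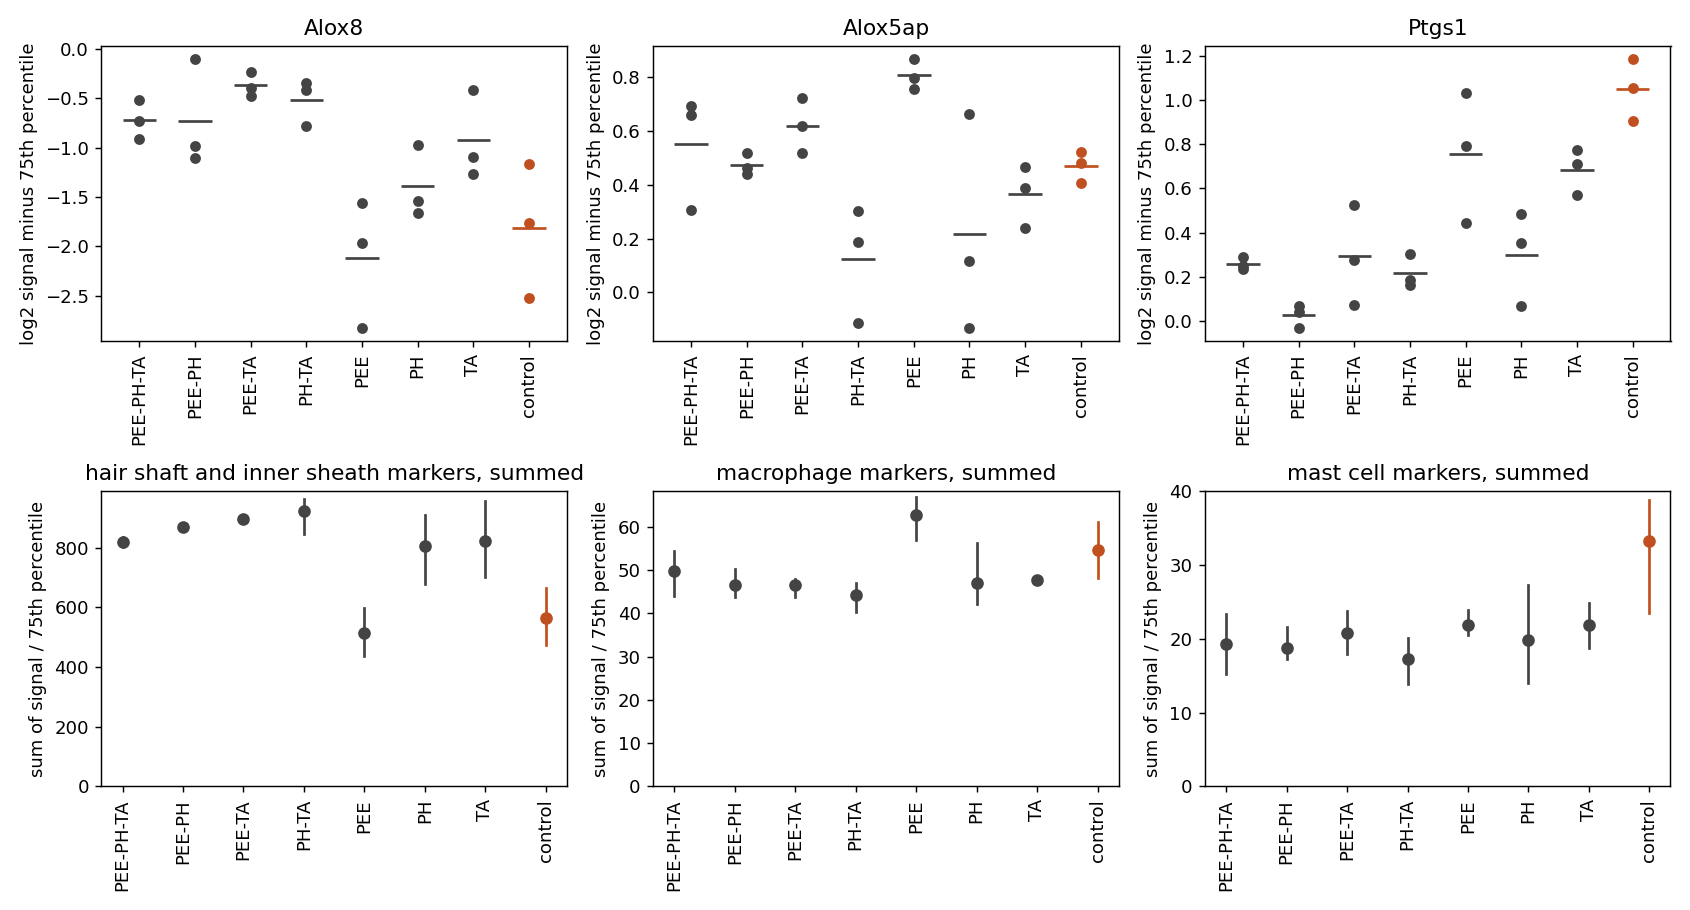
Upper panels: Alox8, Alox5ap and Ptgs1 on each array (points) with group means (lines), in log2 signal minus the 75th percentile. Lower panels: range (bars) and mean (points) over the 3 arrays of each group of the summed signal of hair shaft and inner sheath, macrophage and mast cell markers, in units of the 75th percentile. Hair shaft sums are lowest with PEE and in control, and mast cell sums are highest in control.

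The promoters of the 2 neighbours that rose in the same pairs are shown with the same motifs in capitals. Alox8 lies on the minus strand at chr11:69197794-69198093 and Alox12b on the plus strand at chr11:69156822-69157121.
Alox8: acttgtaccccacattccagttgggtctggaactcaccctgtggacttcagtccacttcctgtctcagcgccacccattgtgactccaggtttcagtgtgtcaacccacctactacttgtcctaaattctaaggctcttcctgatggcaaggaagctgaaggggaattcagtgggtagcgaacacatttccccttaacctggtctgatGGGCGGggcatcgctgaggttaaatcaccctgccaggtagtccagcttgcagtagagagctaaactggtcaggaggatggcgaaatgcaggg
Alox12b: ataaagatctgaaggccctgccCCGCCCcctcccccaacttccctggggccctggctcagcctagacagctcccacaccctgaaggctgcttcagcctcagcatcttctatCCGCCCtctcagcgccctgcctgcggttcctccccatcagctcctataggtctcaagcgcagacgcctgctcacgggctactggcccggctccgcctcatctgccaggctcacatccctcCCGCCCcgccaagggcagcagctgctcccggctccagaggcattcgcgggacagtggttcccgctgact
Alox8 held 1 GC box and Alox12b 3, the Alox12b matches lying on its minus strand, and neither held another of the motifs. The GC share of the windows was 52.7% and 66.0%. RefSeq promoters were matched for 7 of the 10 genes, and Alox5ap, Alox15 and Aloxe3 are named only.

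Of 15 tested genes of the acylceramide barrier pathway, 3 rose and 0 fell with PEE-PH-TA, with a median of 0.11, beside 0.00 over all genes, and the average effect of PEE raised 5 and lowered 0. Abhd5, a lipase cofactor, rose by 0.39 ± 0.08 in PEE-PH-TA follicles (adjusted p = 0.00264), and Cyp4f39, the fatty acid omega-hydroxylase, by 0.39 ± 0.05 in the average effect of PEE (adjusted p = 6.66e-06). The average effect of PH on Cyp4f39 was -0.14 ± 0.05 (adjusted p = 0.033).

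Alox12, the platelet-type lipoxygenase, was lower with PEE. Its values were -2.78, -2.98 and -2.86 in PEE-PH-TA follicles, against -2.48, -2.33 and -2.72 in control. PEE-PH arrays gave -2.91, -2.92 and -3.05. The remaining groups gave -2.57, -2.66 and -2.97 in PEE-TA follicles, -3.19, -2.76 and -2.23 in PH-TA follicles, -2.70, -2.96 and -2.97 in PEE follicles, -2.28, -2.79 and -2.38 in PH follicles and -2.83, -2.55 and -2.63 in TA follicles. Both PEE-PH-TA and PEE-PH lay below every control array, but the changes of -0.36 ± 0.18 (adjusted p = 0.201) and -0.45 ± 0.18 (adjusted p = 0.0653) did not pass. The PEE-PH change passed with only the arrays compared (-0.45, adjusted p = 0.03) and with normexp background correction (-0.27, adjusted p = 0.0109). Averaged over backgrounds, PEE changed Alox12 by -0.26 ± 0.09 (adjusted p = 0.04), with -0.05, -0.27 and -0.48 on the 3 slides. With the replicate number as a block the adjusted p was 0.0525, and leaving out any of 16 of the 24 arrays ended the call (-0.20 to -0.27, adjusted p of 0.0507 to 0.0772). It was -0.06 with normexp background correction (adjusted p = 0.24) and -0.16 without replicate 3 of every group (adjusted p = 0.277), and the call was also lost with the authors' deposited values (adjusted p = 0.0534), without the filter (adjusted p = 0.0699) and with the array signal as a covariate (adjusted p = 0.0786). With PH-TA the change was -0.22 ± 0.18, which passed without PH-TA replicate 3 (-0.46, adjusted p = 0.0415) and with normexp (-0.21, adjusted p = 0.0336). Normexp also called Alox12 in the average effect of PH (-0.10, adjusted p = 0.0477). It did so too in the interaction of PEE and TA with PH present (0.31, adjusted p = 0.0341). Of 7 platelet markers, Gp1ba was not well above background on any array, and the summed signal was 9.02 to 10.1 in PEE-PH-TA follicles, against 10.3 to 14.8 in control. Pf4 was by far the brightest of the 5 tested, at 3.16 with PEE-PH-TA and 3.42 in control, so the sum mostly reflects it. Its change did not pass (-0.26, adjusted p = 0.328). With PEE-PH-TA Itga2b rose (0.78, adjusted p = 0.0299) and Ppbp fell (-1.69, adjusted p = 1.9e-05). Itga2b was dim, at -4.26 with PEE-PH-TA and -5.03 in control. The part of these markers in the result was not tested.

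Alox15, the lipoxygenase of eosinophils and resident macrophages, was not well above background on any array, so no level or change is given.

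**Figure D4:**
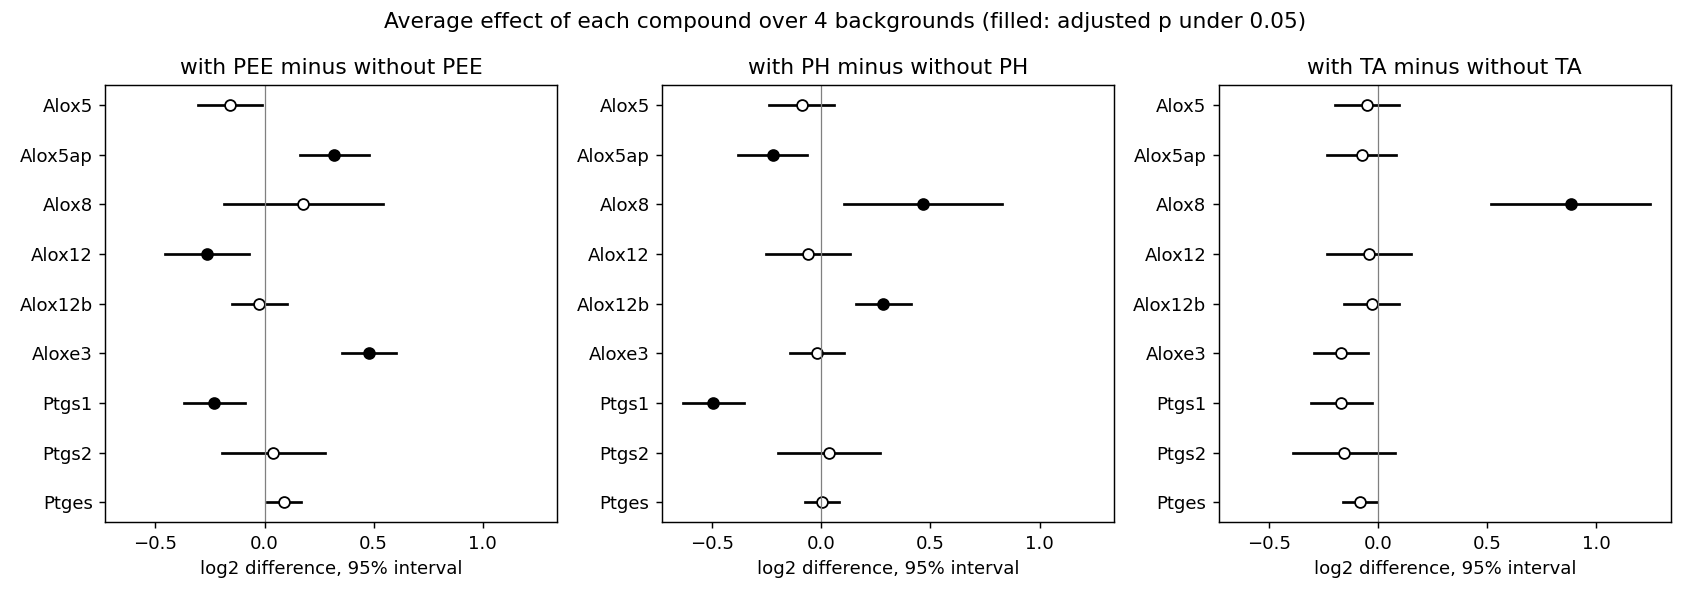
Average effect of PEE, PH and TA on the 9 tested genes (points, log2 difference with minus without the compound over the 4 backgrounds) with 95% intervals (lines), filled where the adjusted p is under 0.05. PEE moves Aloxe3 (0.48) and Alox5ap (0.32) up, PH moves Ptgs1 (-0.50) down and TA moves Alox8 (0.88) up.

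Whether the compounds add up was asked in 4 comparisons with the sum of single compounds on the log2 scale, and 0 of the 9 genes passed in any of them, against 0%, 0.068%, 0.0136% and 0% of all genes for PEE-PH, PEE-TA, PH-TA and PEE-PH-TA. Under an unadjusted p of 0.05 by limma there were 0, 0, 1 and 2. Alox12b with PEE-PH-TA departed from the sum by -0.98 ± 0.24 (95% interval -1.48 to -0.48, adjusted p = 0.765).

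The change from adding PH to PEE-TA differed from that of adding PH to PEE for 4 of the 9 genes, 2 with a positive and 2 with a negative difference, against 18.4% and 9.06% of all genes (27.5% in all), in contrasts chosen after the data were seen. PH changed Alox8 by -0.35 ± 0.35 on PEE-TA and by 1.39 ± 0.35 on PEE, a difference of -1.74 ± 0.49 (adjusted p = 0.0139). For Alox12b the changes were -0.24 ± 0.12 on PEE-TA and 0.56 ± 0.12 on PEE, a difference of -0.80 ± 0.17 (adjusted p = 0.00226). The steps themselves were not tested. For Ptgs1 they were -0.03 ± 0.13 on PEE-TA and -0.73 ± 0.13 on PEE, a difference of 0.70 ± 0.19 (adjusted p = 0.0108).

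Ptgs2 changed by 0.51 ± 0.22 when PH was added to PEE-TA and by -0.41 ± 0.22 when it was added to PEE, a difference of 0.92 ± 0.32 (adjusted p = 0.0367). The difference between adding PEE to PH-TA and adding PEE to PH was 1.01 ± 0.32 (adjusted p = 0.0425), 1 of 9 genes called, against 8.9% of all genes with a positive and 4.47% with a negative difference (13.4% in all). PEE changed Ptgs2 by 0.56 ± 0.22 on PH-TA and by -0.44 ± 0.22 on PH. These Ptgs2 calls were lost without PEE-PH-TA replicate 3 (0.61, adjusted p = 0.0925, and 0.70, adjusted p = 0.0927), and 7 and 8 single arrays in all ended them. The interaction of PEE and PH with TA present called 0 of 9 genes, against 0.589% of all with a positive and 0.195% with a negative difference (0.784% in all), with 2 under an unadjusted p of 0.05 by limma. With the array signal as a covariate none of the 5 calls held, and the differences were -0.47 for Alox8, -0.64 for Alox12b, 1.09 for Ptgs1, and 0.04 and 0.30 for Ptgs2.

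**Figure D5:**
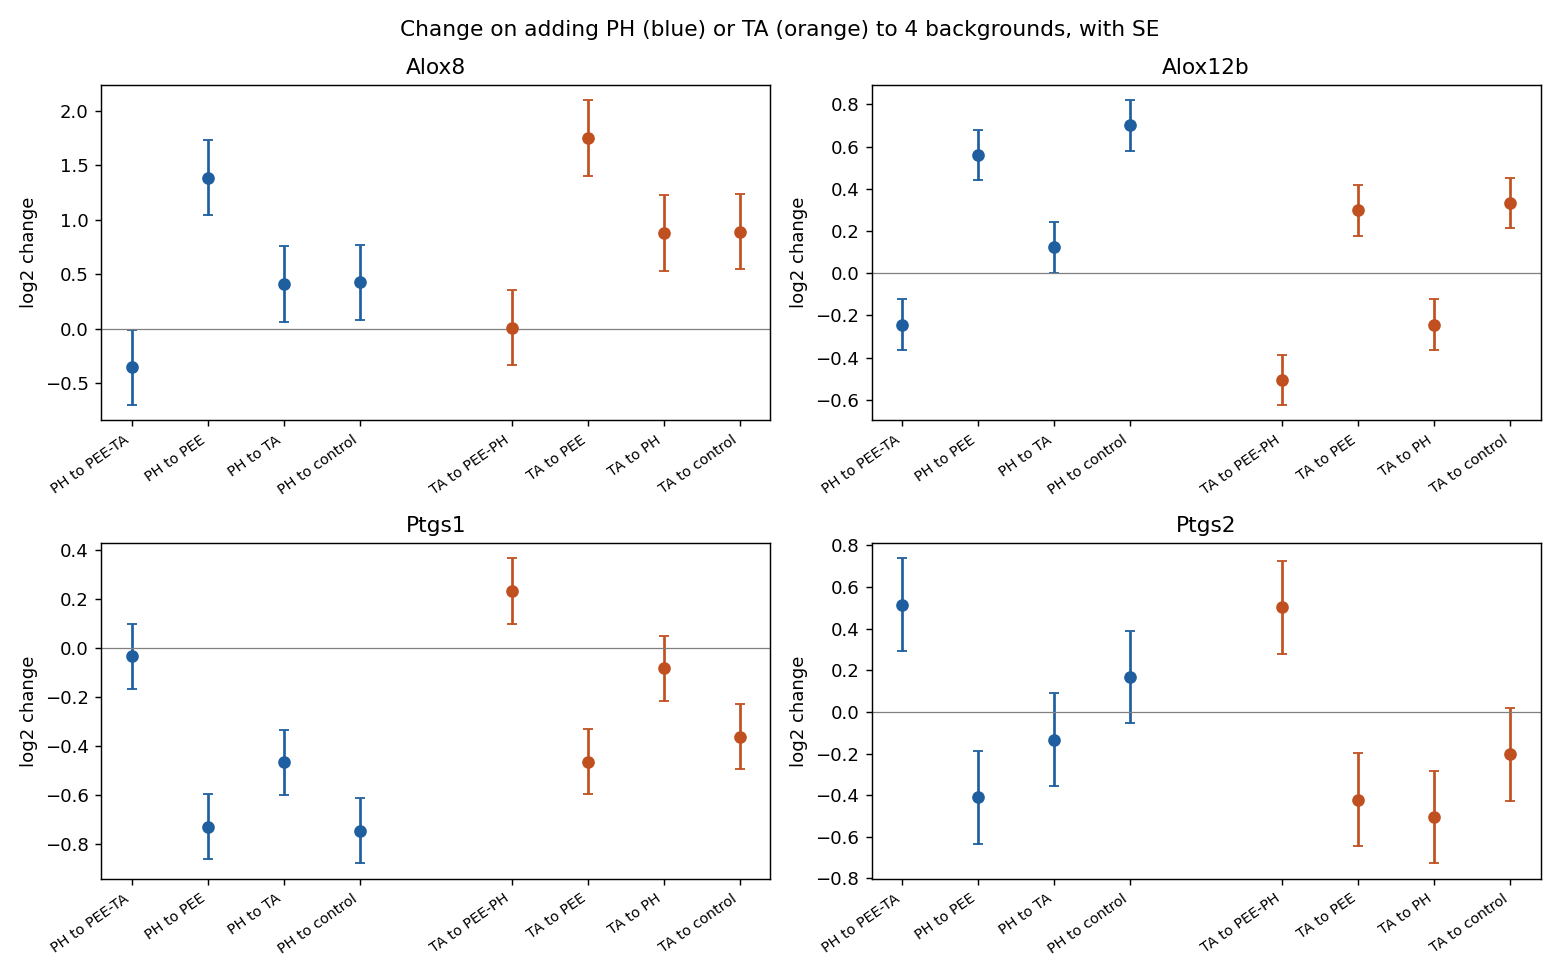
Log2 change of Alox8, Alox12b, Ptgs1 and Ptgs2 when PH (blue) or TA (orange) was added to each background, with the limma standard error (bars). The change of Alox8 with PH is -0.35 on PEE-TA and 1.39 on PEE, and that of Ptgs2 is 0.51 on PEE-TA and -0.41 on PEE.

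The named genes whose levels followed each gene most closely over the 24 arrays, by Pearson's r, were Atp6v1c2 (0.92) and Kif26b (0.92) for Ptgs1, Ifi202b (0.82) and Snx7 (0.82) for Ptgs2, and Pdpn (0.89) and Acsl4 (0.87) for Ptges. For Alox5ap they were Cd68 (0.91) and Itgb2 (0.89), for Alox5 Tmprss11b (0.81) and Glrp1 (0.70), and for Alox12 Ccl20 (0.83) and Sprr2a3 (0.78). Aloxe3 was closest to Gpx2 (0.92) and Taldo1 (0.91), Alox12b to Itga3 (0.80) and Ero1b (0.79), and Alox8 to Sp6 (0.90) and Slc6a13 (0.89). These values describe arrays that share groups, slides and scaling. Between members, r was 0.64 for Ptges with Ptgs2 and -0.64 for Ptgs1 with Alox12b.

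Ptgs2 is itself a gene that NF-kB induces, and other inflammatory genes of that kind were set beside it. Of 12 tested, 0 rose and 4 fell with PEE-PH-TA (median -0.62, beside 0.00 over all genes), 0 rose and 5 fell in the average effect of PEE, and 0 rose and 2 fell in that of PH. Ccl3 changed by -1.51 ± 0.38 (adjusted p = 0.0105) and Ccl2 by -1.03 ± 0.21 (adjusted p = 0.00226) with PEE-PH-TA, both chemokine genes, and Ptgs2 by 0.23 ± 0.22.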

How the data were processed

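RNA of 24 whole follicle samples was measured on 24 arrays of 1 colour, 1 sample each. The labels name biotin, while the scans hold 1 green channel. Intensity values (processed signal), background flags and probe names are those the authors deposited from Agilent Feature Extraction 12.0.3.1, per the file headers, which had subtracted background; other values used were spot quality flags, per the file headers. The deposited log2 value table of the same arrays matched its own scan best for 24 of 24 columns; its scale is log2, and its normalization and centring are not given in the sources used here. Groups come from the labels. Replicate numbers coincide with 3 slides, and per the series' design text the 3 replicates were independent experiments.

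Control spots were left out, and 41 non-uniform and 2347 population outlier spots were set missing; 0 spots were saturated. Log2 signal minus the log2 75th percentile of its array was fitted with limma 3.58.1 in R 4.3.3 (data.table package 1.17.8), with 1 mean for each of 8 groups over all arrays (16 residual degrees of freedom). Tested probes passed the background flag on all 3 arrays of 1 group or more, which kept 33340 probes and left out 25 for a missing value. The brightest probe stood for each of 22065 genes, and p-values were adjusted by Benjamini-Hochberg over these, with a threshold of 0.05. The script was tested on simulated data. Figures were drawn with matplotlib 3.10.9.

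The members, gene lists and marker lists were chosen with earlier results of these data known. All 10 members are named; in each pathway list, at most 2 genes called higher and 2 called lower, those with the largest change in an average effect or with PEE-PH-TA; and for each tested member the 2 named genes of highest r. Alternatives were quantile normalization, normexp background correction (offset 50), the deposited table, testing without the filter, averaging the probes of a gene, a trended and robust variance prior in limma, the array signal as a covariate, only the arrays compared, the replicate number as a block, and leaving out single arrays or 1 replicate number of every group. The tests of interaction and the fit over probes were added after the data were seen. Probe positions are on mm9, and promoter sequences are from RefSeq on GRCm38.p6.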

Additional observations from a re-analysis of the deposited data

Results flagged for a closer look

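In 5 tests the change caused by a compound differed with the compounds already present. The effect of PH on PEE-TA minus that on PEE was -1.74 for Alox8, -0.80 for Alox12b, 0.70 for Ptgs1 and 0.92 for Ptgs2 (log2, all past the threshold). The effect of PEE on PH-TA minus that on PH was 1.01 for Ptgs2. With the array signal as a covariate none of the 5 passed. Each also lost its call when some replicate number was left out of every group.

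In other cases arrays with and without a compound did not overlap, with the compound's arrays higher on one background and lower on another. The arrays were not taken as pairs, and a gap between groups can be narrow. PH changed Alox8 by -0.35 ± 0.35 when added to PEE-TA, a change no larger than about its standard error. It changed Alox8 by 1.39 ± 0.35 when added to PEE, and these are the changes behind the first test. PH changed Alox12b by -0.24 on PEE-TA, by 0.56 on PEE and by 0.70 on control follicles. TA changed Alox12b by -0.50 on PEE-PH and by 0.30 on PEE. The difference between PEE-TA and control as backgrounds of PH was not tested.

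TA changed Ptgs1 by 0.23 when added to PEE-PH and by -0.36 when added to control follicles, and this difference was not tested. PH changed Ptgs2 by 0.51 on PEE-TA and by -0.41 on PEE. TA changed Ptgs2 by 0.50 on PEE-PH, by -0.42 on PEE and by -0.50 on PH. The change on PEE-PH against that on PEE is the same difference as in the test of PH and TA with PEE present, and that against PH the same as in the test of PEE and TA with PH present.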

How the results depend on the processing

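Over 17 comparisons, 3618 alternative values of single genes were computed, of which 3438 kept direction and side of the threshold, 152 lost a call, 28 gained one and 0 reversed. Of 29 calls, 7 held in every alternative: Ptgs1 with PEE-PH, PEE-TA, PH-TA and PEE-PH-TA and in the average effect of PH, Aloxe3 in the average effect of PEE, and Alox12b with PEE-PH. The number of genes called, of 9, became 5 with PH-TA, 3 in the average effect of TA, 1 for PEE-PH against the sum and 3 for PEE and TA with PH present under normexp. It was 0 in that last test with quantile normalization, with the deposited table and with only the arrays compared, and 2 in the average effect of TA with the deposited table. Only the arrays compared gave 0 with PH and 1 with PEE-PH-TA, no filter 1 with PEE-PH-TA, and the mean of all probes 5 with PH-TA. The array signal as a covariate gave 2 with PEE-PH, 1 with PH-TA, 1 with PEE-PH-TA, 1 in the average effect of PH, and 0 in the average effect of TA and in the tests of PH and TA with PEE present and of PEE and TA with PH present. The cause was not tested.

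Leaving out single arrays, or 1 replicate number of every group, gave 0 to 1 with PEE, 0 to 3 with PH, 0 to 0 with TA, 2 to 3 with PEE-PH, 1 to 3 with PEE-TA, 1 to 4 with PH-TA and 1 to 2 with PEE-PH-TA. It gave 1 to 5, 1 to 4 and 0 to 3 in the average effects of PEE, PH and TA, 0 to 0 against the sums, 1 to 5 for PH and TA with PEE present, 0 to 1 for PEE and TA with PH present and 0 to 0 for PEE and PH with TA present.

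With the replicate block, the average effect of PEE called 3 of 9 genes, since Alox12 was lost (-0.26, adjusted p = 0.0525), and no other call changed. Same-numbered arrays lay on the same slide. They deviated together at r of -0.09 to 0.31 (median 0.11), with 12 of 21 pairs over 0.1. Of 24 arrays, 21 were closest to one of their own number, so arrays of a slide were somewhat alike. The labels do not say that a number marks a shared experiment, and not every pair was over 0.1, so the block was kept as an alternative.

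The share of all calls that were higher was 30.4% with PH, 41.6% with PEE-PH, 40.0% with PEE-TA, 40.8% with PH-TA and 44.3% in the average effect of PH. With quantile normalization these were 45.5%, 55.0%, 52.3%, 55.6% and 58.2%, and with the authors' deposited values 41.7%, 55.1%, 52.3%, 55.6% and 57.5%. For the average effect of TA the share was 34.8%, against 47.0% and 46.3% in these settings. It was 67.0%, against 50.7% and 52.3%, for PH and TA with PEE present, and 66.6%, against 49.6% and 47.9%, for PEE and TA with PH present. Without the filter the median of all genes was -0.19 in PEE-PH, -0.14 in PEE-TA, -0.20 in PH-TA and 0.12 in PEE follicles against control, and 0.34 for PH and TA with PEE present. Alox5 and Alox12 are dim, and Alox15 is at background, so that signal limits what they show.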

Other observations

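Alox12e, an epidermal 12-lipoxygenase gene of the mouse outside the 10 genes, was looked at after its values were seen. It changed by -1.03 ± 0.15 with PEE-PH-TA (adjusted p = 0.000176), -1.10 ± 0.15 with PEE-PH (adjusted p = 3.76e-05), -0.51 ± 0.15 with PEE-TA (adjusted p = 0.0218) and -0.99 ± 0.15 with PH-TA (adjusted p = 0.0003). PEE alone gave -0.52 ± 0.15 (adjusted p = 0.0368), PH -0.76 ± 0.15 (adjusted p = 0.00824) and TA 0.01 ± 0.15 (adjusted p = 0.985). Averaged over backgrounds, PH changed it by -0.72 ± 0.08 (adjusted p = 9.07e-06) and PEE by -0.35 ± 0.08 (adjusted p = 0.00199). Alox12b changed by 0.28 ± 0.06 in the same average effect of PH.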
